A study of Homo sapiens with 6 samples.

Results

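The 53 genes described here lie in a row in band 1q21 of human chromosome 1, from PLEKHO1 to CRTC2, and were put together because many of them shared a lower level in HEK-293 cells that overexpress circANRIL. They were listed by name, chosen by the measured differences of this same contrast between circANRIL and vector control arrays. Their differences between the groups are therefore given as a description, with no test, and support nothing. All 53 had at least 1 probe on the array, 79 probes in all. Probes count as kept if at least 3 arrays, from either group, had a detection p-value under 0.05. By this filter 44 of the 53 genes had a kept probe, out of 12134 genes measured on the arrays. The other 9 did not, and a gene that is detected only where it is high can pass the filter only through that group. Where a gene has several kept probes, the brightest stands for it.

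The study hybridised RNA to 6 Illumina HumanHT-12 v4 arrays, all from HEK-293, an established line derived from human embryonic kidney. The cells of 3 arrays stably overexpressed circANRIL, a circular RNA made from exons of ANRIL (CDKN2B-AS1), and those of the other 3 carried the vector pBI-CMV2 without it. Both groups were therefore stably transfected. The methods speak of cell lines for the arrays of both groups and state that several lines were made with each construct, but neither they nor the labels, which number the arrays of each group from 1 to 3, tie an array to a line, so a difference between groups may be one between lines, and p-values measure only the spread between these arrays. All levels are normalized log2 intensities, and all differences are circANRIL minus vector control on that scale, with n = 3 arrays per group; a level of 1 probe cannot be set against that of another.

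On each array 43.4% to 46.8% of all probes were detected, with Pearson's r across probes of 0.980 to 0.990 for arrays of 1 group and of 0.946 to 0.968 for arrays of different groups. Of 6 marker genes chosen for HEK-293, 4 were detected on all arrays (KRT8, VIM, NEFL and NEFM), KRT18 was detected on some and PAX2 on none. Among these the groups were far apart in KRT8 (7.27 to 8.21 with circANRIL and 5.11 to 6.31 in the vector control) and in NEFM (6.30 to 8.0 and 12.02 to 12.80), and the part of such differences between the cells in the results below was not tested. In bulk RNA, fewer cells that express a gene and less RNA per cell cannot be told apart. The leukocyte marker PTPRC, the endothelial markers PECAM1 and VWF and all 4 keratinocyte markers (KRT5, KRT14, FLG and LORICRIN) were detected on none, while CD14, CD68 and the fibroblast gene COL1A1 were detected on all arrays by at least 1 probe. Of the 2 probes of CDKN2B-AS1, 1 was detected on 1 array of each group and the other on none, and where they lie with respect to the circle is not known, so the overexpression was not measured here. Of 21191 kept probes 17.7% passed an adjusted p under 0.05 in limma, 8.44% lower and 9.27% higher with circANRIL.

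Band 1q21 carries the epidermal differentiation complex, a cluster of genes for the cornified layer of the skin, and among them most genes of the S100 family of small calcium-binding proteins. On both sides of this cluster lie genes that most cells use, for histone modification, splicing, protein degradation, lipid synthesis and vesicle traffic. Skin barrier genes are normally silent in kidney-derived cells, whereas these widely used genes are active.

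Several members start within a short distance of a neighbour that is read in the opposite direction, and the windows around such starts are printed because the differences of the 2 genes of a pair can be compared. The windows come from RefSeq (GRCh38.p14), run 5′ to 3′ on the strand of the named gene from 250 bases before its start to 50 bases after it, and were found for 42 of the 53 members, with 60 windows in all. Capitals mark matches on either strand to any of 5 short motifs that were searched in every window: the GC box GGGCGG, the CCAAT box CCAAT, the TATA box TATAAA, the ETS site CCGGAAGT and the E-box CACGTG, none of which contains another. The window of SCNM1 (chr1:151165894-151166193, plus strand) also holds the start of LYSMD1, on the other strand and 242 bases away. The window of PRUNE1 (chr1:151008199-151008498, plus strand) holds 3 of the 4 listed starts of MINDY1 on the other strand, 56, 73 and 250 bases away.
SCNM1: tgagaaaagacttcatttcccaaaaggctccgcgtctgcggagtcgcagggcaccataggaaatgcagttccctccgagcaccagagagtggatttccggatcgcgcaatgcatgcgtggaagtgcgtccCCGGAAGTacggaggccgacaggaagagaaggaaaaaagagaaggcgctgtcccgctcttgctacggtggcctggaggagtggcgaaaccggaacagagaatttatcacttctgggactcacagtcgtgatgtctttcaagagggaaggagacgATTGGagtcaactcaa
PRUNE1: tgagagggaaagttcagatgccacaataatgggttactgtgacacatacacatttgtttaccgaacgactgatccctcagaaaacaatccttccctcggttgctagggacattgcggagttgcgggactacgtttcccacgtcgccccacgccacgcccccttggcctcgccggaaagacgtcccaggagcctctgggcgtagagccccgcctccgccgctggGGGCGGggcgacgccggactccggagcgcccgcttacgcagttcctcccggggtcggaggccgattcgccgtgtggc

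The starts of CDC42SE1 and MLLT11 are 775 bases apart and also point away from each other, and their windows do not overlap. CDC42SE1 (chr1:151059573-151059872, minus strand) was with all arrays the member farthest below the vector control, and MLLT11 (chr1:151060147-151060446, plus strand) was among the few members above it. GATAD2B (chr1:153922923-153923222, minus strand) and S100A10 (chr1:151993810-151994109, minus strand) are shown as members with a clear difference from the later part of the row.
CDC42SE1: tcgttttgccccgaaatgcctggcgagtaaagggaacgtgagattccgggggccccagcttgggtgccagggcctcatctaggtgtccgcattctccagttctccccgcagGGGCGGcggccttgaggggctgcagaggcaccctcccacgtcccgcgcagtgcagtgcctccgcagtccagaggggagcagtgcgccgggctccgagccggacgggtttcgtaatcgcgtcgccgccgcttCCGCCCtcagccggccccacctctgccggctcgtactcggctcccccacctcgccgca
MLLT11: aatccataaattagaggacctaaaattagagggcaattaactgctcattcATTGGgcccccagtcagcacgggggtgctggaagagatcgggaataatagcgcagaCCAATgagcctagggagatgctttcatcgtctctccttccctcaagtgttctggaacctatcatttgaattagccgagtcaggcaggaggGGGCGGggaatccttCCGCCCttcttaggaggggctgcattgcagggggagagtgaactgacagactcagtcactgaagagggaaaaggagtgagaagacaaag
GATAD2B: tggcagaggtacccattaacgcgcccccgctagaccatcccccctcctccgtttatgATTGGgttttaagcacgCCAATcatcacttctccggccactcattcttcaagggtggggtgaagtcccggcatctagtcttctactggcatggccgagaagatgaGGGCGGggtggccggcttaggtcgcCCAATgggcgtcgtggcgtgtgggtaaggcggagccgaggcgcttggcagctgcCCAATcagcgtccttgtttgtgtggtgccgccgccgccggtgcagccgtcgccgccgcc
S100A10: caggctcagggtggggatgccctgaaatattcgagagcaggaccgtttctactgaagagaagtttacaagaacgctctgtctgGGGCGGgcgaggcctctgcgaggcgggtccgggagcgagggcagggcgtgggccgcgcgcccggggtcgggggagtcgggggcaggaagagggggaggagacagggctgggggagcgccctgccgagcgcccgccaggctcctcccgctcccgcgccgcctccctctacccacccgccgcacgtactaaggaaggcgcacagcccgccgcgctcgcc

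The GC box was present in 41 of the 60 member windows (68.3%) and in 45% of all 35116 windows of the same length, and the CCAAT box in 38.3% of member windows and 34.6% of all. The TATA box was present in 5% of member windows and 11.5% of all, the ETS site in 5% and 4.14%, and the E-box in 10% and 7.26%. Median GC content was 60.8% over member windows and 58.7% over all windows. Such a match is a stretch of letters and not a binding site. In the windows printed, SCNM1 has 1 ETS site and 1 CCAAT box and no GC box, PRUNE1 has 1 GC box, CDC42SE1 has 2 GC boxes, MLLT11 has 2 GC boxes and 2 CCAAT boxes, GATAD2B has 1 GC box and 4 CCAAT boxes, and S100A10 has 1 GC box. Genes on both sides of 0 thus have GC boxes in their windows.

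The level of most members was lower with circANRIL, by about the same amount on each array. The median difference of the 44 members was −0.58, or 67.1% of the vector control level, with quartiles of −0.77 and −0.26. Over all 12134 genes the median was −0.02, with quartiles of −0.28 and 0.27. On the circANRIL arrays 1, 2 and 3 the members had a median of −0.54, −0.54 and −0.54 against the mean of the vector control arrays. The vector control arrays 1, 2 and 3, each set against the mean of the other 2, had medians of 0.12, 0.01 and −0.11. All 3 circANRIL arrays were lower than any vector control array in this median. Of the 44 members, 37 were below the vector control mean on all 3 circANRIL arrays, 1 on 2 of them, 2 on 1 and 4 on none.

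Of the 44 members 38 were below 0 and 6 were above it, where 51.7% of all genes were below 0. The 2 groups of arrays did not overlap in 33 members that were lower and in 1 that was higher (GABPB2), where 20% of all genes did not overlap in the lower direction and 19.2% in the higher. In the limma fit over all kept probes 25 members were called lower and 0 higher, where 9.26% of all genes were called lower and 11.4% higher. Since the members were listed for this contrast, nothing is read from these counts. With a floored background 13 members were called lower, and with the methods' t-test, adjusted by Benjamini-Hochberg, 5.

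**Figure D1:**
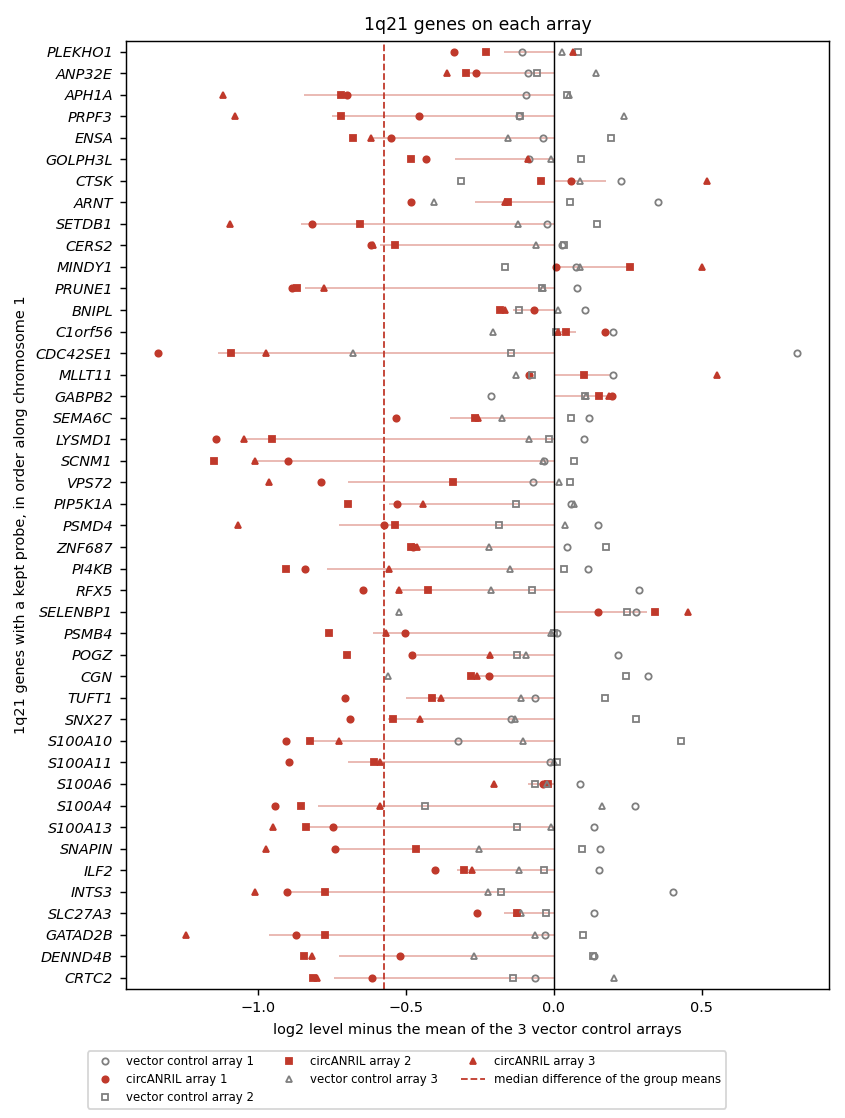
Log2 level of the 44 members with a kept probe on each array, minus the mean of the 3 vector control arrays, in order along chromosome 1 (red, circANRIL arrays; open grey, vector control arrays; pale bars, difference of the group means; dashed line, its median of −0.58). Red points lie left of 0 for most genes, and those of 6 genes, among them MINDY1, MLLT11 and SELENBP1, average to the right of it.

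The size of the difference was not the same for all members. It was −1 or lower in 3 members, between −1 and −0.75 in 10, between −0.75 and −0.5 in 13, between −0.5 and −0.25 in 8, between −0.25 and 0 in 4 and above 0 in 6. The standard deviation of the differences over members was 0.38, whereas the standard error of a single member's difference had a median of 0.17 and ran from 0.11 to 0.29. The spread over members was thus wider than the error of a typical member. The 30 members with a mean log2 level of 7 or more had a median of −0.70 and the 14 dimmer ones of −0.33, while all genes at 7 or more had a median of −0.02. Across the members, which are not independent replicates, Spearman's rho of mean level and difference was −0.15 and Pearson's r was −0.11.

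Counted over members only, those below 0 formed long runs along the chromosome. The 18 other measured genes between them are left out of these runs. Of those 18, 14 were below 0 and 4 above it, among them C1orf54 and S100A14. Since the members were listed for this contrast, nothing is read from the length of the runs. The first 6 measured members, from PLEKHO1 to GOLPH3L, were all below 0, as were 9 in a row from SEMA6C to RFX5 and the last 17 from PSMB4 to CRTC2. All 6 members above 0 lay between CTSK and SELENBP1, and MLLT11 and GABPB2 were the only 2 of them next to each other. The median was −0.54 over the 34 members from PLEKHO1 to S100A11, before the skin barrier genes, and −0.74 over the 10 members from S100A6 to CRTC2, after them, where 10 of 10 were below 0.

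Among the 11 members that act on chromatin or transcription, 9 were below 0 and the median difference was −0.47. GATAD2B, a subunit of the NuRD chromatin remodelling complex, had log2 levels of 7.37, 7.47 and 7.005 on the circANRIL arrays and 8.22, 8.34 and 8.18 on the vector control arrays, a difference of −0.96 (SE 0.18). SETDB1, a histone methyltransferase that silences genes and retroelements, was at 8.07, 8.24 and 7.80 against 8.87, 9.04 and 8.77, a difference of −0.86 (SE 0.17). In both genes every circANRIL array was lower than every vector control array, and circANRIL array 3 was the lowest. The CREB coactivator CRTC2 was at −0.74, VPS72, a subunit of histone exchange complexes, at −0.70, the HP1-binding protein POGZ at −0.46 and ARNT, the partner of the hypoxia-inducible factors, at −0.27 with overlapping groups. MLLT11, first found as a fusion partner in leukaemia, was at 10.28, 10.47 and 10.91 against 10.56, 10.29 and 10.24, a difference of 0.19 (SE 0.16) with overlapping groups. This difference was 0.0095 without circANRIL array 3 and 0.0092 with median scaling.

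All 4 members with a part in RNA processing were below 0, with a median of −0.82. SCNM1, a protein of the minor spliceosome, was at 7.39, 7.14 and 7.28 with circANRIL and 8.25, 8.35 and 8.25 in the vector control, a difference of −1.02 (SE 0.17). Its 2 kept probes gave −1.02 and −0.73, and the groups lay clearly apart. INTS3, a subunit of the Integrator complex that cleaves small nuclear RNAs, was at 9.29, 9.42 and 9.19 against 10.60, 10.02 and 9.97, a difference of −0.90 (SE 0.17). Vector control array 1 was the highest of the 6. The splicing factor PRPF3 was at −0.75, and ILF2 at −0.33.

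The proteasome members differed in the same direction on every array. PSMD4, the ubiquitin receptor of the regulatory particle, was at 10.17, 10.20 and 9.67 with circANRIL and 10.89, 10.56 and 10.78 in the vector control, a difference of −0.73 (SE 0.16), and its other kept probes gave −0.79 and −0.85. PSMB4, a subunit of the core particle, was at 10.49, 10.23 and 10.42 against 11.001, 10.99 and 10.98, a difference of −0.61 (SE 0.13). The vector control arrays of PSMB4 were almost equal. MINDY1, which removes ubiquitin chains, was at 8.63, 8.88 and 9.12 against 8.70, 8.46 and 8.71, a difference of 0.26 (SE 0.17) with overlapping groups, which was 0.13 without circANRIL array 3 and 0.06 with median scaling.

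All 9 members of membrane, lipid and trafficking functions were below 0 with groups that did not overlap, and their median was −0.59. In the lower direction 33 of the 44 members and 20% of all genes did not overlap, so nothing is read from this count about the class. APH1A, a subunit of the γ-secretase protease, was at 9.08, 9.06 and 8.66 with circANRIL and 9.68, 9.82 and 9.83 in the vector control, a difference of −0.85 (SE 0.16), with −0.92 by its other kept probe. PI4KB, a lipid kinase of the Golgi, was at −0.77, the vesicle protein SNAPIN and the Rab exchange factor DENND4B each at −0.73, CERS2, which makes ceramides with very long chains, at −0.59, the sorting nexin SNX27 at −0.56 and the lipid kinase PIP5K1A at −0.56. The smallest differences were those of GOLPH3L, a Golgi protein, at −0.33 and of the fatty acid transport protein SLC27A3 at −0.17. The 9 genes therefore spanned most of the range seen below 0.

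Of 5 measured S100 members all were below 0, and the groups overlapped only in S100A6, where 33 of the 44 members and 20% of all genes did not overlap in the lower direction. S100A10, which binds annexin A2 at the plasma membrane and whose start is printed above, was at 11.56, 11.64 and 11.74 with circANRIL and 12.14, 12.90 and 12.36 in the vector control, a difference of −0.82 (SE 0.15), with −0.75 by its other probe. S100A11, a partner of annexin A1, was at 8.48, 8.77 and 8.79 against 9.36, 9.38 and 9.38, a difference of −0.70 (SE 0.16). The groups of both genes were apart. S100A13, which takes part in the export of proteins without a signal peptide, was at 8.57, 8.48 and 8.37 against 9.45, 9.19 and 9.31, a difference of −0.84 (SE 0.16). S100A6 was near the detection limit, at 5.12, 5.14 and 4.95 against 5.24, 5.09 and 5.13, a difference of −0.09 (SE 0.17) with overlapping groups. S100A4, a member linked to cell motility, was detected on 3 of 3 vector control arrays (5.52, 4.81 and 5.41) and on 0 of 3 circANRIL arrays. It thus passed the filter only through the vector control. Its mean level was at least 1.49-fold lower. This bound sets the vector control mean against the lowest level of a detected probe on each circANRIL array, and leaves out the spread of the vector control arrays. The other probe of S100A4 was detected on no array. S100A16 was detected on 2 vector control arrays at most and was not kept.

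The remaining members gave the extremes of the list in both directions. CDC42SE1, a small binding partner of the GTPase CDC42, had the lowest difference with all arrays, −1.13 (SE 0.29), but its vector control arrays spread widely, with 4.88, 5.13 and 5.25 on the circANRIL arrays and 7.04, 6.08 and 5.54 on the vector control arrays. Without vector control array 1 it was −0.72, nearer to 0 than LYSMD1 at −0.996 and SCNM1 at −1.03, and in the authors' normalized table it was −0.49, against −0.75 for SCNM1. Its dimmer probe gave −0.42. Vector control array 1 was the highest for both probes, and by the brighter one vector control array 3 came close to circANRIL array 3. LYSMD1, a LysM domain protein, was at 5.75, 5.94 and 5.84 against 6.99, 6.88 and 6.81, a difference of −1.05 (SE 0.19) with a wide gap between the groups. PRUNE1, a phosphodiesterase, was at 7.91, 7.92 and 8.01 against 8.87, 8.75 and 8.75, a difference of −0.84 (SE 0.16). ENSA, an inhibitor of a mitotic protein phosphatase, was at −0.62, with −0.67 and −0.49 by its other probes. The enamel protein gene TUFT1 was at −0.50, the semaphorin SEMA6C at −0.35 and CGN, which encodes the tight junction protein cingulin, at −0.25, where vector control array 3 lay below all circANRIL arrays.

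At the other end were the members that did not share the lower level. SELENBP1, a selenium-binding oxidase, was at 7.04, 7.23 and 7.34 with circANRIL and 7.17, 7.14 and 6.37 in the vector control, a difference of 0.31 (SE 0.23) that was 0.05 without vector control array 3. The bone protease CTSK was at 5.16, 5.06 and 5.62 against 5.32, 4.78 and 5.19, a difference of 0.18 (SE 0.20) that was 0.0066 without circANRIL array 3 and 0.02 without vector control array 2. C1orf56 was at 5.64, 5.51 and 5.48 against 5.67, 5.47 and 5.26, a difference of 0.08 (SE 0.19) that was −0.03 without vector control array 3. In all 3 genes the groups overlapped. BNIPL was at 5.04, 4.92 and 4.94 against 5.21, 4.99 and 5.12, a difference of −0.14 (SE 0.16), also with overlap. GABPB2, a subunit of the ETS-family factor GABP, was at 13.02, 12.97 and 13.004 against 12.61, 12.92 and 12.93, a difference of 0.18 (SE 0.11). That difference was 0.07 without vector control array 1, and the groups were narrowly apart. By its dimmer kept probe GABPB2 was at −0.65, so its place here rests on the brighter probe.

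**Figure D2:**
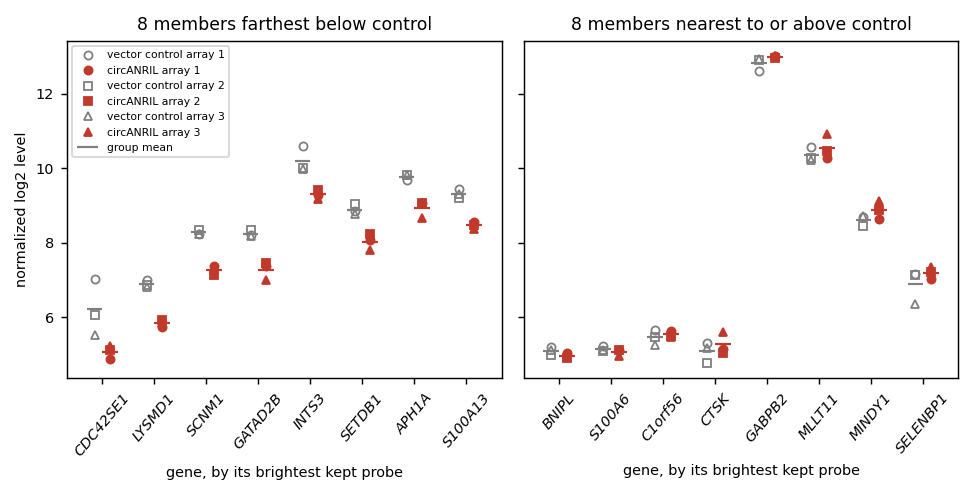
Normalized log2 level on each array (red, circANRIL; open grey, vector control; short lines, group means; n = 3 arrays per group) for the 8 members farthest below the vector control and the 8 nearest to or above it, among members detected on all 6 arrays. On the left the groups are apart for every gene, and on the right only those of GABPB2 are.

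Pairs of members with neighbouring starts did not always go together. LYSMD1 and SCNM1, whose starts share the window printed above, were both about −1, at −1.05 and −1.02. PRUNE1 was at −0.84 whereas MINDY1, read from the same stretch in the other direction, was at 0.26. CDC42SE1 was at −1.13 and MLLT11 at 0.19, and the sizes of both depended on single arrays, as given above. The genes of a pair were alike in 1 of these 3 pairs.

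Of 11 members with more than 1 kept probe, 4 had probes that differed by more than 0.5 and the others did not. GABPB2 had the widest gap, with 0.18 by the brighter probe and −0.65 by the dimmer one, which was at 5.50, 5.49 and 5.77 on the circANRIL arrays and 6.64, 6.25 and 5.82 on the vector control arrays. RFX5, a regulator of MHC class II genes, was at −0.53 by its brighter probe (10.10, 10.32 and 10.22 against 11.03, 10.67 and 10.53) and at 0.01 by the dimmer. Which transcripts the probes measure was not examined. The 4 kept probes of S100A13 ran from −0.84 to −0.18, and 1 of them was detected on 0 of 3 circANRIL and 3 of 3 vector control arrays, at least 1.3-fold lower. ANP32E, a histone chaperone, had the same pattern of detection with its single probe and was at least 1.16-fold lower.

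The 9 members without a kept probe were CA14, ECM1, ADAMTSL4, HORMAD1, CTSS, ANXA9, TMOD4, TDRKH and S100A16. Of these CA14, HORMAD1, CTSS, ANXA9 and TMOD4 were detected on no array. No difference could be measured for them at these signals. With no detection filter, so that all 53 members enter, the median was −0.47 and 45 members were below 0.

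The 18 other measured genes between PLEKHO1 and CRTC2 did not enter the list, and their limma tests are given with p-values adjusted over all kept probes. Since the list was chosen by the differences of this contrast, that choice may also have shaped which genes were left over. Nothing is read from the gap between their median and that of the members. Of the 18, 14 were below 0 and their median was −0.09. Called lower were 5, and 0 were called higher, where 9.26% of all genes were called lower. TARS2, the threonyl-tRNA synthetase of mitochondria, was at 8.10, 8.16 and 7.86 with circANRIL and 8.95, 9.004 and 8.90 in the vector control, a difference of −0.91 (SE 0.16, limma adjusted p = 0.00112). THEM4, a thioesterase, fell by 0.97 (SE 0.18, limma adjusted p = 0.00159), and was detected on 2 of 3 circANRIL arrays. These 2 calls held with any array left out. The mitochondrial ribosomal protein genes MRPL9 and MRPS21 were at −0.65 (limma adjusted p = 0.0095) and −0.53 (limma adjusted p = 0.0151), and the apoptosis inhibitor MCL1 at −0.52 (limma adjusted p = 0.0275). Without circANRIL array 2 these 3 calls were lost, with limma adjusted p = 0.051, 0.0837 and 0.121, so that 2 of the 5 calls were left, and with the methods' t-test 1 was left. CHTOP, an mRNA export factor, was at −0.29 (limma adjusted p = 0.152).

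Of these 18 genes 12 had a mean level under 7, THEM4 among them, and stood mostly near the detection limit. Examples are SPRR1A at −0.08, TCHH at −0.20 and S100A14 at 0.25, named after their values had been seen. The 6 genes at 7 or more, RPRD2 at −0.36 among them, had a median of −0.53, with 4 called lower. The 30 members at such levels had a median of −0.70. This split by level was chosen after the values had been seen. On the circANRIL arrays 1, 2 and 3 the 18 genes had medians of −0.32, −0.20 and −0.15.

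**Figure D3:**
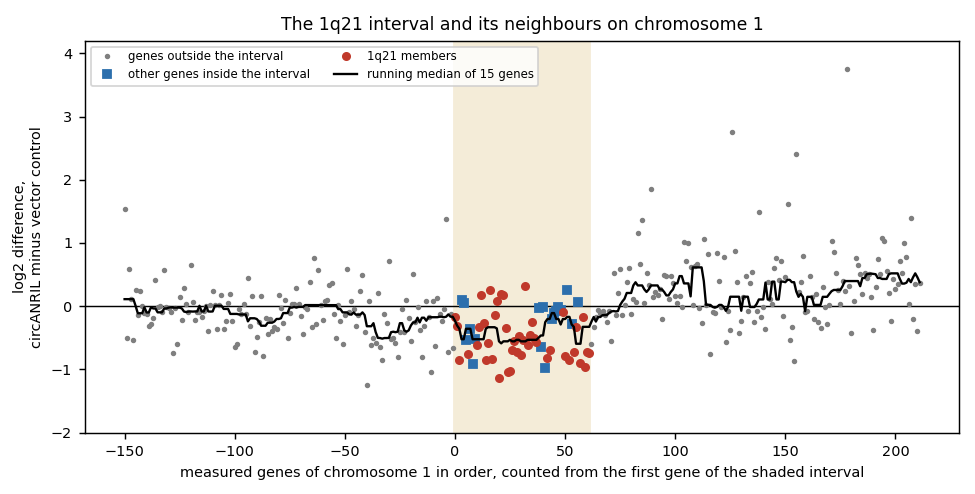
Log2 difference of every measured gene of chromosome 1 within 150 genes of the row from PLEKHO1 to CRTC2 (shaded), by gene order and not by distance (red, members; blue, other genes inside the row; grey, outside it; black line, running median of 15 genes). The line lies below 0 throughout the shaded row and on both sides next to it, and above 0 for most of the genes farther to the right.

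The genes next to the row were partly lower as well, so the lower levels did not end sharply at its first and last member. The 25 measured genes before PLEKHO1 had a median of −0.18, with 5 called lower and 1 higher. The 25 before those had a median of −0.27, with 9 lower and 1 higher. Within them, from ANKRD35 to TXNIP, the running median of 15 genes was −0.50 to −0.51, lower than next to the row. This stretch was picked after the values had been seen. The lowest running median on chromosome 1 was −0.60, at ILF2 inside the row. Over all genes 9.26% were called lower and 11.4% higher. In the nearer 25 the circANRIL arrays had medians of −0.16, −0.19 and −0.17, and vector control array 3, at −0.34 against the other 2, was lower still. Of the 5 nearest, VPS45, a vesicle trafficking protein, was at −0.67 (limma adjusted p = 0.00798) and the splicing factor SF3B4 at −0.72 (limma adjusted p = 0.00665), while BOLA1 was at −0.05 and MTMR11 at −0.13, both above 0 without vector control array 2 (0.03 and 0.18). SV2A, a synaptic vesicle protein, rose by 1.37 (SE 0.27, limma adjusted p = 0.00224) and was detected on 2 of 3 vector control arrays. It stood only 4 genes before PLEKHO1. The running median of 15 genes was last above 0 at TENT5C, 54 genes before the row.

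After CRTC2 the values went from slightly below 0 to above it. SLC39A1, a zinc transporter and the next measured gene, was at −0.60 (limma adjusted p = 0.036, and 0.151 without vector control array 1). CREB3L4 was at −0.33, JTB at −0.17, RAB13 at −0.05 and the ribosomal protein gene RPS27 at −0.11, none of which passed the test, and RAB13 was at 0.11 without vector control array 1. The first 25 genes had a median of −0.05, with 2 called lower and 5 higher. On the circANRIL arrays 1, 2 and 3 their medians were 0.04, 0.008 and −0.05, so the arrays lay on both sides of 0. The running median first rose above 0 at PMVK, 14 genes after the row. The next 25 had a median of 0.33, with 0 called lower and 8 higher. The 100 after those had a median of 0.30, with 2 lower and 31 higher, where 9.26% of all genes were called lower and 11.4% higher. All 3 circANRIL arrays had the same order, with medians of −0.54 in the members and 0.33, 0.31 and 0.36 in the genes 26 to 50 after the row. The 1171 genes of chromosome 1 outside the row had a median of 0.00. Over the other chromosomes the median ran from −0.29 on chromosome 13 to 0.28 on chromosome X, each over a far longer stretch than this row.

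**Figure D4:**
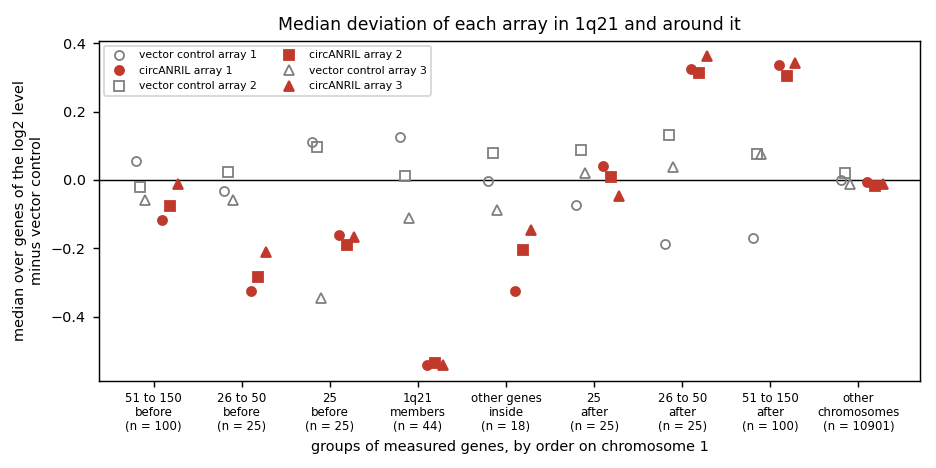
Median over genes of the log2 level on each array, in the members, in the other genes of the row, in blocks of measured genes before and after it and on all other chromosomes (red, circANRIL arrays minus the vector control mean; open grey, each vector control array minus the mean of the other 2). The red points of the members lie at −0.54 and those of the blocks beyond the 25 genes after the row at about 0.3.

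Genes that work with the members or are their paralogues, but lie at other loci, were listed to see whether they moved too. Of 126 such genes 109 were measured. Their median was −0.12, 9 were called lower and 10 higher, and 64 were below 0. The share called was near the 9.26% lower and 11.4% higher of all genes. A further 9 partners on chromosome 1 but outside the row had a median of 0.01, with 0 called lower and 2 higher. Without circANRIL array 2 or array 3 the 19 calls at other loci were 10.

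By class, the partners in the proteasome, in which 2 members sit, had a median of −0.14 over 23 genes, with 3 called lower and 1 higher. PSMD3 was at −0.82 (limma adjusted p = 0.0279) and PSMC3 at −0.66 (limma adjusted p = 0.0162), whereas PSMC2 rose by 0.43 (limma adjusted p = 0.0467); each of these calls was lost without circANRIL array 3, with limma adjusted p of up to 0.182 for PSMC2 with 1 array left out. Partners in chromatin and transcription had a median of −0.07 over 31 genes, with 2 lower and 2 higher. The ATPase RUVBL1 and the acetyltransferase KAT5, which share complexes with VPS72, were at −0.61 (limma adjusted p = 0.0101) and −0.62 (limma adjusted p = 0.0284). The call of RUVBL1 was lost only without circANRIL array 2 (limma adjusted p = 0.0501). That of KAT5 stayed in only 1 of the runs with 1 array left out, with limma adjusted p up to 0.102. RBBP7, which like GATAD2B belongs to NuRD, rose by 0.85 (limma adjusted p = 0.000206). ARNT2, the paralogue of ARNT, rose by 1.09 (limma adjusted p = 0.00648). Members and partners of 1 complex thus went in both directions. Partners in RNA processing had a median of −0.27 over 17 genes, with 0 called in either direction.

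Partners in membranes, lipids and trafficking had a median of 0.04 over 22 genes, with 2 lower and 4 higher. GOLPH3, the paralogue of GOLPH3L, was at −0.58 (limma adjusted p = 0.0188, and 0.1 without circANRIL array 3), and BLOC1S1, which shares a complex with SNAPIN, at −0.62 (limma adjusted p = 0.0179, and 0.08 without circANRIL array 2). The fatty acid transport genes SLC27A2 and SLC27A5, paralogues of SLC27A3, rose by 1.82 (limma adjusted p = 2.21e-05) and 1.02 (limma adjusted p = 0.00114), the latter with detection on 2 of 3 vector control arrays. Of 10 other cathepsins, 1 was called lower, CTSA at −1.30 (limma adjusted p = 0.00129), and 3 higher, among them CTSL at 0.62 (limma adjusted p = 0.00862, and 0.0568 without circANRIL array 2) and CTSO at 0.68 (limma adjusted p = 0.0222), which was detected on 1 of 3 vector control arrays. The call of CTSO was lost without circANRIL array 1 or 3 or vector control array 1 or 2, with adjusted p up to 0.0867 in limma. The 3 measured partners and paralogues of ENSA (ARPP19, MASTL and PPP2R2D) had 0 calls. ANXA2, the annexin that S100A10 binds, fell by 1.02 (SE 0.13, limma adjusted p = 5.19e-05), which held with any array left out. It was the only one of 3 measured S100 and annexin partners that was called.

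**Figure D5:**
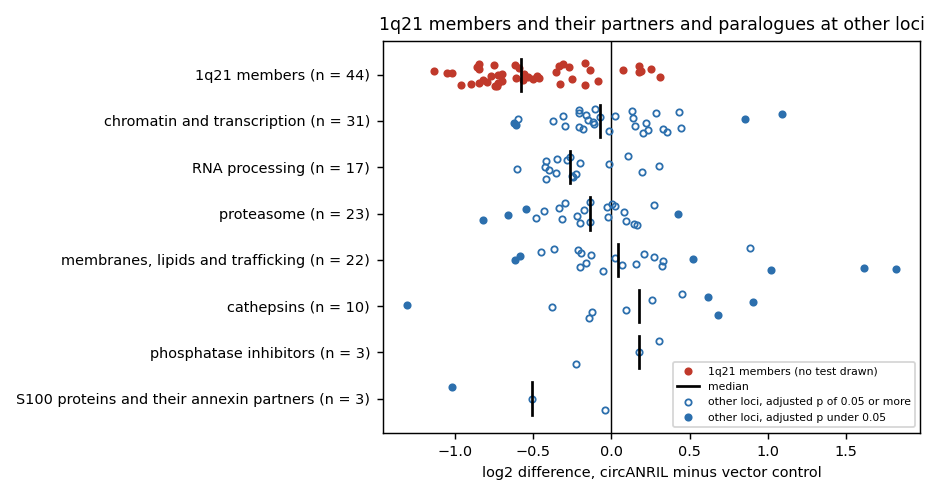
Log2 difference, circANRIL minus vector control, of the 44 members (red, no test) and of 109 partners and paralogues at other loci by class (blue, filled where the limma adjusted p was under 0.05; black lines, medians). The median of the members is −0.58 and those of the classes with at least 10 genes lie between −0.27 and 0.18.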

How the data were processed

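RNA of 6 samples, 3 circANRIL and 3 vector control, had been hybridised to 1-colour Illumina HumanHT-12 v4 arrays. Per the labels the authors used GenomeStudio (version 2011.1), and quantile normalization with background reduction is named in their methods. In the deposited table, each of 47315 probes has per array an intensity on the linear scale, from which the authors had subtracted background (11666 to 12397 intensities per array are negative) but which they had not normalized between arrays. Beside it stands a detection p-value, which the authors' software derived from negative control beads. A second deposited table holds the authors' normalized intensities and served as an alternative. No slide, batch or date is named, and no pair of arrays was identical. For arrays no counting depth exists, and their number limits the precision.

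Background was modelled by normexp from the detection p-values (offset 16), after which quantile normalization and log2 transformation followed in limma 3.58.1 (R 4.3.3), with lmFit, eBayes with an intensity trend and Benjamini-Hochberg adjustment over 21191 kept probes, threshold 0.05. Symbols came from the platform's probe annotation and were updated by gene identifier through a RefSeq table of GRCh38.p14, which matched 30071 of 30110 probes with 1 symbol (3 members have newer names: CERS2 for LASS2, MINDY1 for FAM63A and PRUNE1 for PRUNE). This table also gave the order of genes on chromosome 1, and a RefSeq promoter table of the same build gave the printed windows and the distances between starts. The fit was tested on simulated arrays.

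The members, the partner lists, the marker lists and the tests were chosen with earlier results of these data known. Values on every array are given for the 8 members farthest below the vector control, the 8 nearest to or above it, the S100 members and members whose kept probes disagree. Of other genes, up to 6 with the smallest p inside the row, the 5 next to it on each side and up to 2 per direction in each class of partners are named. PRUNE1, PSMD4 and PSMB4 were given in full after their values had been seen.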

Additional observations from a re-analysis of the deposited data

Results flagged for a closer look

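S100A13 has a probe that did not enter the comparison because it was not kept, and that was detected on a circANRIL array and on no vector control array. It had a log2 level of 4.67 on circANRIL array 1, where it was detected, and of 4.53 and 4.28 on the other two, a mean of 4.49. The vector control arrays were at 4.38, 4.22 and 4.34. The detection is on 1 array of 6 and close to the lowest level of a detected probe on that array, 4.65. The brightest probe of the same gene was lower with circANRIL on every array.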

How the results depend on the processing

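No called gene among those named changed direction under any alternative run. Neither did the median of the members or that of the other genes in the row. The balance of calls over all probes did so with median scaling. The median of the 25 genes after the row (−0.05) was 0.02 over the 19 of them at a mean level of 7 or more. Of named genes without a call, C1orf56 (0.08) was −0.03 without vector control array 3, BOLA1 (−0.05) and MTMR11 (−0.13) were 0.03 and 0.18 without vector control array 2, and RAB13 (−0.05) was 0.07 without circANRIL array 1 and 0.11 without vector control array 1. The calls over all probes (3753) were 1529 with a floored background, 484 with the methods' t-test, and 1968 (without circANRIL array 2) to 3245 with 1 array left out. With median scaling 1418 were higher and 2974 lower, and the median of all genes moved to −0.14. The median difference of the 1q21 members (−0.58) was then −0.76, or −0.63 relative to all genes. It was −0.61 with a floored background, −0.53 with an offset of 50, −0.50 in the authors' normalized table, −0.61 with detection at 0.01 on all arrays, −0.47 with no filter and −0.70 at a mean level of 7 or more, a limit chosen after the data had been seen. With 1 array left out it ran from −0.57 to −0.63. Members below 0 (38) were 39 with the mean of all kept probes. Members called lower (25) were 13 with a floored background, 5 with the methods' t-test and 20 to 24 with 1 array left out. The median of the other genes in the row (−0.09) was −0.36 with the stricter detection, −0.04 with an offset of 50 and in the authors' normalized table, −0.02 over 76 genes with no filter, −0.53 at the higher level and −0.079 to −0.21 with 1 array left out. Their 5 calls were 1 with the methods' t-test and 2 to 5 with 1 array left out. The 19 calls among partners were 9 with a floored background, 2 with the methods' t-test, 11 at the higher level and 10 to 18 with 1 array left out. For these changes the cause was not tested, except that the stricter limits leave fewer genes. The labels do not say whether replicate numbers pair the arrays. Deviations of arrays with the same number correlated at 0.003, 0.08 and −0.13. These values show no shared deviation but cannot settle whether the arrays were handled in pairs, and the main fit used no pairing. With the replicate number as a block 3531 probes, 24 members, 5 other genes of the row and 19 partners were called. Among single named genes, 566 values under an alternative kept their side of the threshold or stayed within the spread of arrays, 65 were no longer called, 1 became called and 19 moved by more than the spread. The 14 members under a level of 7 lie nearer to the detection limit, where a difference is compressed by the offset and a smaller one cannot be seen with 3 arrays per group.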

Other observations

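Of the 9 members of 1q21 without a kept probe, 4 were detected on 1 or 2 vector control arrays and on no circANRIL array. The share of such genes over the whole array was not counted, so nothing is read from this number. TDRKH, which works with PIWI proteins in the germ line, had log2 levels of 5.04, 4.91 and 4.41 on the vector control arrays and 4.504, 4.41 and 4.43 on the circANRIL arrays. S100A16 was at 4.72, 4.91 and 4.55 against 4.37, 4.31 and 4.39, and every vector control array of it was higher than every circANRIL array. Of genes with a kept probe, 20% did not overlap in this direction. ADAMTSL4 was detected by 1 of its 3 probes on 2 vector control arrays, and ECM1, an extracellular matrix protein, by each of its 2 probes on 1. These values are so close to background that no fold is given.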
